A study of Homo sapiens with 12 samples.

Results

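The 84 genes described here encode the enzymes that start, branch, extend and cap the sugar chains of glycoproteins and glycolipids. They were taken by symbol from the 57500 gene IDs of the count table, as every gene named GALNT, GCNT, MGAT, B3GNT, B4GALT, B3GALT, FUT, ST3GAL, ST6GAL, ST6GALNAC or ST8SIA with its number, a rule that uses no measured value. By enzyme activity they fall into 9 families, which are 18 GALNT, 5 GCNT, 9 MGAT, 9 B3GNT, 12 galactosyltransferase (B4GALT and B3GALT), 11 FUT, 6 ST3GAL, 8 ST6GAL or ST6GALNAC and 6 ST8SIA genes.

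Total RNA of 3 established human cancer lines was sequenced in 12 libraries, which form 4 groups of 3 that the labels call biological replicates. SW480 comes from a primary colorectal tumour and SW620 from a metastatic site of the same patient, both untreated and grown in DMEM, so that comparison is between 2 lines and not between many tumours and metastases. The PEO4 line, from ovarian cancer, was kept in RPMI 1640, either in its standard medium (control) or with 10 ng/mL recombinant human TGF-β for 6 days. All media held fetal bovine serum and penicillin/streptomycin, and the labels name no genetic change in any line.

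Mucin-type O-glycans begin when a GALNT enzyme adds N-acetylgalactosamine (GalNAc) to serine or threonine, and GCNT enzymes then add a branching N-acetylglucosamine (GlcNAc). N-glycans arrive as a preformed precursor, and after trimming the MGAT enzymes set how many GlcNAc antennae the core carries. B3GNT and B4GALT or B3GALT enzymes lengthen antennae by adding GlcNAc and galactose in turn, and FUT and sialyltransferase enzymes cap them with fucose or sialic acid. Epithelial cancers are known for altered branching and capping, which make antigens such as the sialyl-Lewis structures used as tumour markers in colorectal and ovarian disease.

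Sequences are shown for some of the genes described below that had a window, so that the region before their starts can be read beside their values. RefSeq promoter windows (GRCh38.p14) were found for 60 of the 84 genes. Each window printed is the 250 bases before an annotated start, 5′ to 3′ on the gene's strand, and windows that overlapped an annotated exon of their own gene were not printed. Capitals mark 2 short motifs that SMAD proteins, the transcription factors downstream of TGF-β receptors, are known to bind, namely the SMAD box CAGAC and the GC-rich motif GGCGC, each searched on both strands. FUT8 and GALNT9 are 2 of the 4 genes called in PEO4 with TGF-β, while MGAT5 and MGAT5B were called in opposite directions between the SW lines. For MGAT3 and ST3GAL2, the other 2 genes called in PEO4, no window was found.
FUT8 first start (chr14:65410342-65410591, + strand): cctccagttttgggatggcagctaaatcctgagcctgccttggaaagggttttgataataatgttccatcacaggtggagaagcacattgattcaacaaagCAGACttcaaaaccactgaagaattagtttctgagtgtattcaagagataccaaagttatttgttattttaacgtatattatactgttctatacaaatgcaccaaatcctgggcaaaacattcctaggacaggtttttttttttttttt
FUT8 later start (chr14:65412480-65412729, + strand): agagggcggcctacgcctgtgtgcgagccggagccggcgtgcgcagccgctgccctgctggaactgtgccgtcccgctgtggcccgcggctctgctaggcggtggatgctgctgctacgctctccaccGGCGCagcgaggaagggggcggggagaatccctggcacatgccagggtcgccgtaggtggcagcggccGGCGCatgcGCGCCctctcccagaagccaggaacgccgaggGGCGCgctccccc
GALNT9 (chr12:132329590-132329839, - strand): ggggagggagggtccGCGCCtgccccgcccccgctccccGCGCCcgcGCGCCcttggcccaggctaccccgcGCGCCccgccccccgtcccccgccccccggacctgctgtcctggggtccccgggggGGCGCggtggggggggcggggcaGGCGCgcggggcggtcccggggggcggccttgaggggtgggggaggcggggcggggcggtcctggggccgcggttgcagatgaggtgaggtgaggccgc
MGAT5 first start (chr2:134119685-134119934, + strand): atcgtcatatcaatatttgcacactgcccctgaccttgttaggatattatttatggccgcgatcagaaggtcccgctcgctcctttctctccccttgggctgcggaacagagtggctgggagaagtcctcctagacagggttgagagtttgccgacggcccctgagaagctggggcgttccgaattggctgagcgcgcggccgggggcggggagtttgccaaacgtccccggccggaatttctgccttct
MGAT5 later start (chr2:134253822-134254071, + strand): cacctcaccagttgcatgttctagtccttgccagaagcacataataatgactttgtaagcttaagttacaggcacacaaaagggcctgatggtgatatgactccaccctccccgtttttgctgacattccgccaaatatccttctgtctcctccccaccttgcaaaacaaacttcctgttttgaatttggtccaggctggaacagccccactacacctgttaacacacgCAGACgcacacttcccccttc
MGAT5B (chr17:76872397-76872646, + strand): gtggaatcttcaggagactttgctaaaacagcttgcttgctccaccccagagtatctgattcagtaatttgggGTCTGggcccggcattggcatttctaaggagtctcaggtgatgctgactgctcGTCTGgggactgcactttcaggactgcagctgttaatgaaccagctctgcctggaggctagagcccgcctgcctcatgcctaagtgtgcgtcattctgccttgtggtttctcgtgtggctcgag

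The first FUT8 window holds 1 CAGAC, 149 bases before the start, and no copy of the GC-rich motif. The later FUT8 window lies within the gene. It holds no SMAD box and 4 copies of the GC-rich motif, which overlap no other marked motif. The GALNT9 window holds 6 copies of the GC-rich motif. The first MGAT5 window holds neither motif, and the later MGAT5 window, which lies within the gene, holds 1 CAGAC, 21 bases before its start. The MGAT5B window also lies within the annotated gene and holds the SMAD box 2 times, on the other strand. Such short motifs are common: the SMAD box is in 38.0% of all 35116 windows of this length and in 41.8% of the 103 windows of the 60 genes. The GC-rich motif is in 44.5% of all windows and in 54.4% of these. The sequence TATAAA, on either strand, is in 10.7% of all windows and in 1.94% of the 103. Median GC content was 58.0% over all windows and 65.2% over the 103, and the motif shares were not adjusted for it. A match is a stretch of letters and not a measured binding site.

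Library totals ranged from 14531420 to 22028956 gene-assigned counts. The labelled lineages were checked on the homeobox gene CDX2, at 18.5 ± 2.57 CPM in SW480 and 18.7 ± 4.44 in SW620 and at no more than 3 counts in any PEO4 library, and on the Müllerian gene PAX8, at 559 ± 18.2 CPM in PEO4 control and 574 ± 55.1 with TGF-β against 43.4 ± 12.5 in SW480 and 46.6 ± 10.2 in SW620 (SD, n = 3). Over the whole marker lists, 8 of 9 colorectal markers had a higher mean in both SW lines than in both PEO4 groups, EPCAM being higher in PEO4, and 5 of 8 ovarian markers were higher in both PEO4 groups, whereas MECOM and SOX17 were higher in SW and FOLR1 was mixed. With TGF-β, MSLN (-0.77 ± 0.09, adjusted p = 0.00375), ESR1 (-0.69 ± 0.08, adjusted p = 0.00410) and WT1 (-0.47 ± 0.08, adjusted p = 0.0274) fell on the log2 scale, 3 of the 7 ovarian markers tested. CPM are counts per 1000000 counts of a library, after scaling of the totals over the 12 libraries with trimmed means (TMM). 3 libraries stood apart. Genes high in PEO4 and near 0 in the other SW libraries reached 1.11% of their PEO4 level in SW620 replicate 3, against 0.0739% to 0.279% in the other 5 SW libraries. Genes high in SW and near 0 in PEO4 reached 0.755% of their SW level in PEO4 control replicate 3 and 1.01% in TGF-β replicate 3, against 0.162% to 0.443% in the other 4. Markers of blood and vessel cells were also seen in SW620, with PECAM1 at up to 95 counts and PTPRC at up to 108, against up to 5 and 1 in SW480. Over the 8 genes of that marker list the summed level was 0.671 to 1.74 CPM in SW480, 2.70 to 10.2 in SW620, 4.66 to 6.94 in PEO4 control and 4.24 to 5.22 with TGF-β. Their part in the results was not tested, and counts of calls without each of the 3 libraries stand beside the results they change.

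Most of the enzyme genes were transcribed in each group, but a few carried most of the RNA. A mean of at least 1 CPM was reached by 58 of the 84 genes in SW480, 56 in SW620, 62 in PEO4 control and 63 in PEO4 with TGF-β, and at least 100 CPM by 3, 4, 4 and 4. In every library of a group no more than 3 counts, the limit that a count of 0 allows, were seen for 13 genes in SW480, 20 in SW620, 10 in PEO4 control and 8 with TGF-β. MGAT4D had no count in any library, and GALNT15, GALNT17, MGAT4C, ST8SIA2 and ST8SIA3 stayed at or below 3 counts in all 12. That limit is 0.145 to 0.179 CPM depending on the library, and like every counting interval here it covers counting error only, since amplified reads are not independent molecules.

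**Figure D1:**
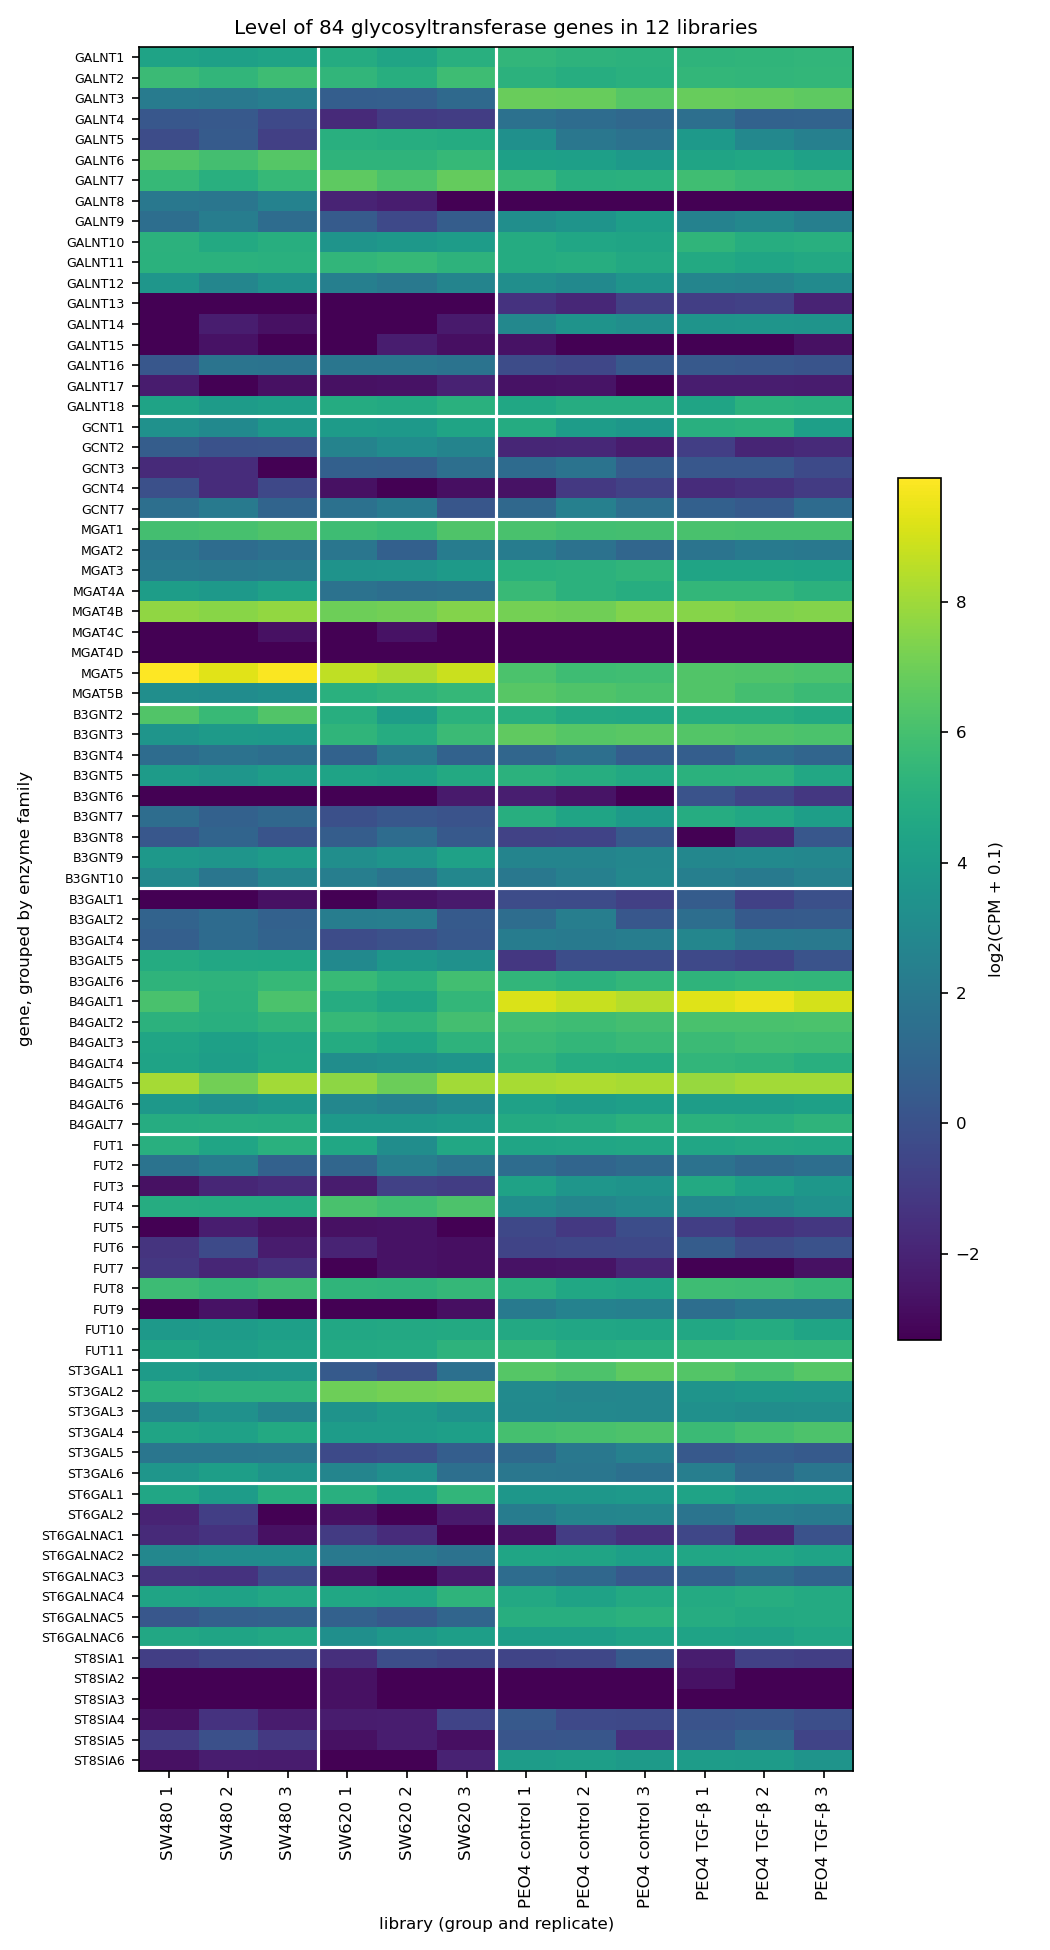
Level of each of the 84 genes (rows, grouped by enzyme family and separated by white lines) in each of the 12 libraries (columns, 3 per group), as log2(CPM + 0.1) on the colour scale. MGAT5 in SW480 and B4GALT1 in PEO4 are the brightest rows, and GALNT14, FUT9 and ST8SIA6 are dark in the 6 SW libraries and bright in the 6 PEO4 libraries.

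To order genes by level, CPM were divided by the length of the gene's exons in kilobases (CPM per kb). MGAT5, which adds the β1,6-linked GlcNAc branch of N-glycans, was first in SW480 at 97.3 ± 19.8 CPM per kb and in SW620 at 46 ± 8.31 (SD, n = 3). B4GALT5, a galactosyltransferase of glycolipid synthesis, came second at 48.3 ± 16.5 and 41.9 ± 15.3, and in SW620 its spread overlapped that of MGAT5. MGAT4B, which makes a β1,4-linked branch, was the third in both lines. In PEO4 the order was led by B4GALT1, the main galactosyltransferase of N-acetyllactosamine (the galactose-GlcNAc unit of antennae), at 93.1 ± 23.3 CPM per kb in control and 129 ± 20.3 with TGF-β. B4GALT5 followed at 62.6 ± 1.97 and 54.8 ± 4.02, then B3GNT3 at 40.4 ± 3.39 and 33.2 ± 2.54. MGAT4B and GALNT3 were the fourth and the fifth in both PEO4 groups.

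The leading gene of several families differed between the lines. MGAT genes summed to 146 ± 22.9 CPM per kb in SW480, 87.7 ± 14.8 in SW620, 63.7 ± 3.94 in PEO4 control and 66.1 ± 4.08 with TGF-β. MGAT5 alone made up 66.6% of the SW480 sum and 52.5% of the SW620 sum, whereas MGAT4B led in PEO4 with 42.3% and 48.3%. Galactosyltransferase genes went the other way between lineages, at 104 ± 23.4, 93.7 ± 26.5, 215 ± 22.3 and 249.6 ± 21.3 CPM per kb in the same order of groups. ST8SIA genes, which build chains of sialic acid, summed to 0.124 ± 0.0467 in SW480 and 0.0968 ± 0.0636 in SW620 but to 6.10 ± 0.420 in PEO4 control and 5.49 ± 0.971 with TGF-β, where ST8SIA6 held 96.6% and 95.9% of the sum. In the ST3GAL family the leading gene per kb changed from ST3GAL4 in SW480 (38.3% of the sum) to ST3GAL2 in SW620 (72.2%). These sums are descriptions, since the SW and PEO4 lines grew in different media and are not tested against each other.

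**Figure D2:**
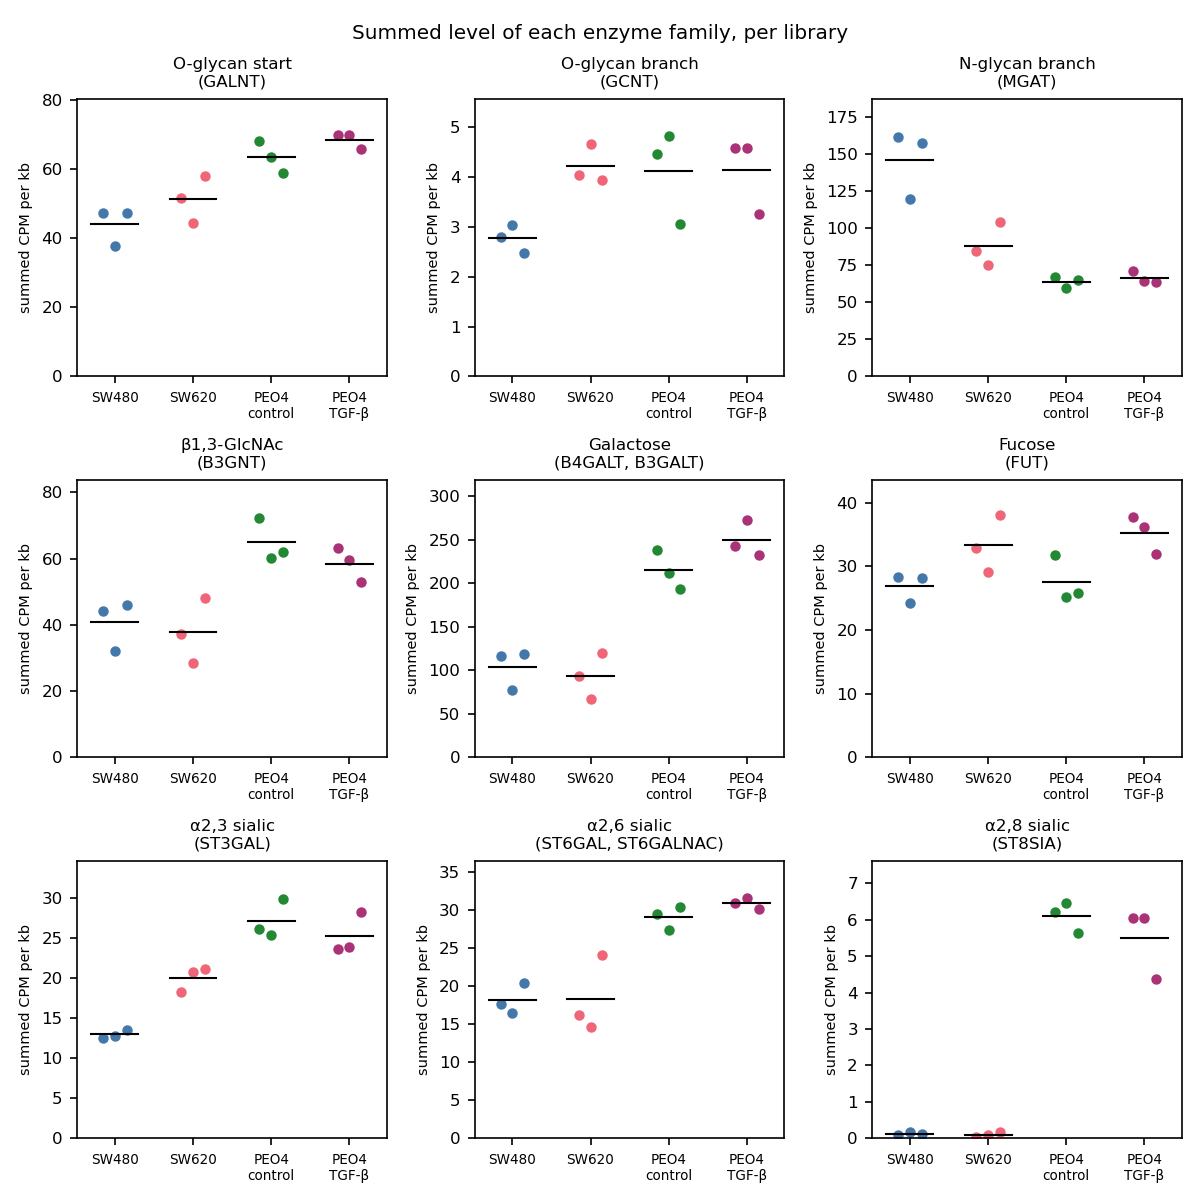
Summed CPM per kb of each of the 9 enzyme families (panels, linear axes from 0) in the 3 libraries of each group (points), with the group mean as a line. The MGAT sum is highest in SW480 (mean 146), the galactosyltransferase sum is highest in PEO4 with TGF-β (mean 249.6), and the ST8SIA sum is below 0.18 in every SW library.

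Several genes divided the lineages almost completely. ST8SIA6, an α2,8-sialyltransferase, was at 16.1, 16.9 and 14.7 CPM in PEO4 control and 15.8, 15.5 and 11.3 with TGF-β, and had no more than 3 counts in any SW library. FUT9, which makes Lewis x structures, was at 4.06, 5.72 and 5.33 and 2.69, 3.43 and 3.46 CPM, and had at most 1 count per SW library. GALNT14 was at 7.05, 10.8 and 9.11 and 11.3, 11.9 and 11.5 CPM, with at most 2 counts per SW library. In SW620 replicate 3, its 1.11% of PEO4-type counts predicts 3.31 counts of ST8SIA6, 0.912 of FUT9 and 2.27 of GALNT14, and 3, 1 and 2 were seen. In the SW480 libraries that share was 0.226% to 0.279%. These held up to 2 counts of ST8SIA6, 1 of FUT9 and 2 of GALNT14. The source of these few counts was not tested. FUT3, the Lewis fucosyltransferase, was at 19.9, 12.4 and 11 and 25.9, 18.2 and 12.8 CPM in PEO4 and at no more than 0.491 CPM in any SW library. GALNT3, known for protecting the hormone FGF23 from cleavage, was at 119.5, 113 and 85.8 and 114, 112 and 97.2 CPM in PEO4 and at 1.47 to 4.95 CPM in the SW lines. In the other direction, B3GALT5, which makes the type 1 chains that carry sialyl-Lewis a, was at 7.80 to 28.1 CPM in the SW libraries. In PEO4 it was at 0.338 to 0.941 CPM. GALNT8 had no count in any PEO4 library, 77, 64 and 112 counts in SW480 and only 3, 2 and 0 in SW620. It therefore set SW480 apart and did not divide the lineages. The sequences of FUT3, FUT5 and FUT6 are alike in part, and 16.2%, 82.1% and 9.26% of their 50-base exon windows are also found in other genes. AC024592.3, a gene on the same strand, overlaps 82.5% of the exonic bases of FUT5. The share of FUT5 is therefore no measure of its likeness to FUT3 or FUT6. The split of counts among these genes is uncertain.

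SW620 was set against SW480 to ask which of these enzymes the line from the metastasis transcribes differently. Of the 84 genes, 62 had enough counts for the test, edgeR's quasi-likelihood test with Benjamini-Hochberg adjustment over 20941 genes. At an adjusted p under 0.05, 12 were higher and 19 lower in SW620, 31 of 62, where 30.5% of all tested genes were called (13.5% higher and 17.0% lower). The tested enzyme genes had a median level of 16.5 CPM against 9.33 for all tested genes, and genes with more counts are called more easily. Their median log2 fold change was -0.16, against 0.03 for all tested genes. Replicate values did not overlap between the lines for 42 of the 62 (67.7%), against 43.6% of all tested genes. An unadjusted p under 0.05 was found for 41 of the 62, against 40.7% of all tested genes. Of the 31 calls, 22 were changes of at least 2-fold, and 21.0% of all tested genes were called with such a change. Fewer cells that express a gene and less RNA per cell cannot be told apart in such bulk libraries.

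**Figure D3:**
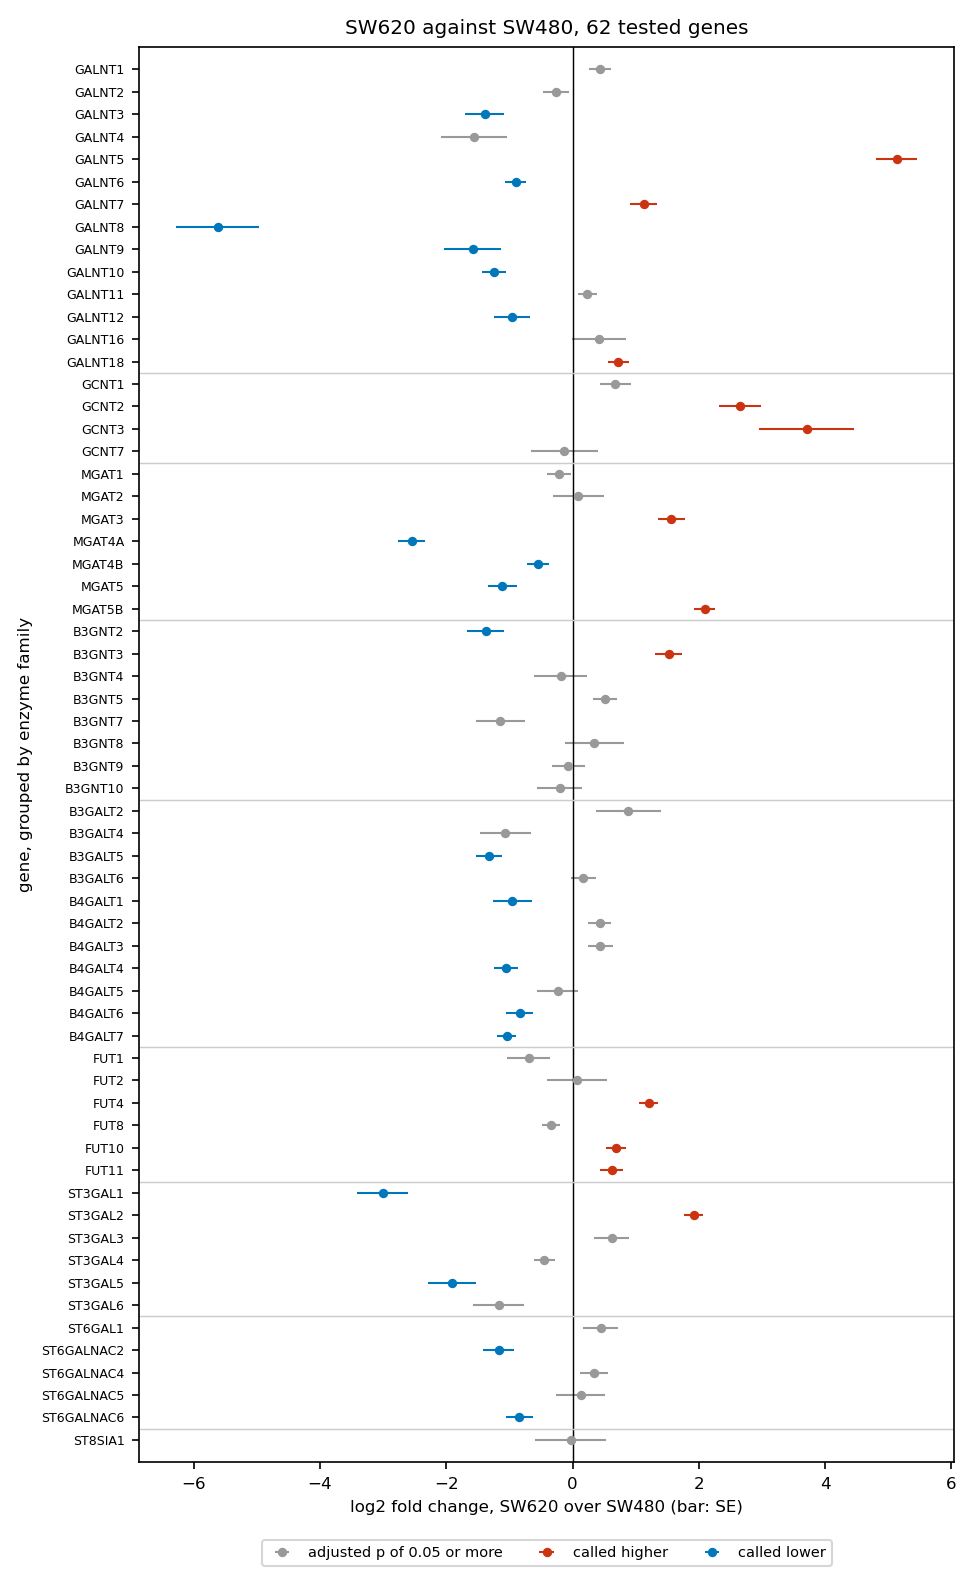
Log2 fold change of SW620 over SW480 (x axis, bars are the SE) for the 62 tested genes, grouped by enzyme family. Red points are the 12 called higher and blue points the 19 called lower, with GALNT5 at 5.13 and GALNT8 at -5.62 as the outermost.

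In the GALNT family, which starts O-glycans, 3 of 14 tested genes were higher and 6 lower in SW620. GALNT5 (chr2:157257598-157314211, + strand) was at 0.744, 1.29 and 0.464 CPM in the SW480 libraries and 31.9, 29.9 and 27.7 in the SW620 libraries. It was low in all SW480 and high in all SW620 libraries, with a log2 fold change of 5.13 ± 0.33 (SE), adjusted p = 8.82e-06. GALNT7, which prefers peptides that already carry GalNAc, was at 46.2, 31.9 and 47 CPM in the SW480 libraries and 98.8, 70.8 and 109.6 in the SW620 libraries, a log2 fold change of 1.13 ± 0.21 (SE), adjusted p = 0.00345. Its highest SW480 value lay below its lowest SW620 value. GALNT18 gave 0.72 ± 0.17 (SE), adjusted p = 0.0111, and this call was lost without SW480 replicate 3 (adjusted p = 0.0759). GALNT8 (chr12:4720341-4851927, + strand) had 77, 64 and 112 counts in SW480 and 3, 2 and 0 in SW620, a ratio of 52.4 with a 95% counting interval of 22.2 to 163. The gene shares 62.7% of its exonic bases with other annotated genes on the same strand, KCNA6 and AC005833.1. KCNA6 had no counts in any library, and the counts of AC005833.1 are not given here. The GALNT8 counts are therefore uncertain.

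Among the other GALNT genes that were lower in SW620, GALNT10, another enzyme for peptides with GalNAc in place, was at 35.8, 26.4 and 31.4 CPM in the SW480 libraries and 11.3, 13.1 and 16 in the SW620 libraries, -1.24 ± 0.19 (SE), adjusted p = 0.00107 on the log2 scale. GALNT6 was at 80.0, 61.3 and 85.8 CPM in the SW480 libraries and 39.5, 38.7 and 45.7 in the SW620 libraries, -0.90 ± 0.17 (SE), adjusted p = 0.00309. Both genes were separated in all 6 libraries at more than 10 CPM in every SW library, while the next 3 were less abundant. GALNT3 was at 4.41, 3.92 and 4.95 CPM in the SW480 libraries and 1.47, 1.53 and 2.17 in the SW620 libraries, -1.39 ± 0.31 (SE), adjusted p = 0.00809. PEO4-type counts predict 52.3% of the 45 GALNT3 counts of SW620 replicate 3, and leaving that library out gave -1.59 (adjusted p = 0.00548). GALNT9, an enzyme best known from brain, was at 2.63, 4.71 and 2.42 CPM in the SW480 libraries and 1.28, 0.655 and 1.40 in the SW620 libraries, -1.58 ± 0.45 (SE), adjusted p = 0.0249. GALNT12, a gene studied in colon cancer, was at 12.2, 6.62 and 10.3 CPM in the SW480 libraries and 5.10, 3.93 and 6.16 in the SW620 libraries, -0.97 ± 0.28 (SE), adjusted p = 0.0303. The GALNT9 and GALNT12 calls were each lost when any of 4 libraries was left out (adjusted p up to 0.0886 and 0.179). The broadly expressed GALNT2 was at 51.5, 41.7 and 56.5 CPM in the SW480 libraries and 41.2, 31.7 and 54.6 in the SW620 libraries and did not pass (-0.27 ± 0.21 (SE), adjusted p = 0.384), its replicates overlapping.

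Of the GCNT genes, which branch O-glycans, 4 were tested and 2 were higher in SW620. GCNT2, the I-branching enzyme that turns linear poly-N-acetyllactosamine into a branched chain, was at 1.39, 0.897 and 0.928 CPM in the SW480 libraries and 6.04, 8.68 and 6.16 in the SW620 libraries, a log2 fold change of 2.66 ± 0.33 (SE), adjusted p = 0.000364. GCNT3, which makes the core 2 and core 4 branches of mucins, had 4, 4 and 0 counts in SW480 and 32, 28 and 58 in SW620, 3.71 ± 0.75 (SE), adjusted p = 0.00517. The groups did not overlap for either gene, and GCNT3 stayed below 3 CPM in its highest library. GCNT1, the core 2 enzyme of most cells, was at 10.4, 7.63 and 12.8 CPM in the SW480 libraries and 15.5, 13.5 and 21.4 in the SW620 libraries and did not pass (0.68 ± 0.24 (SE), adjusted p = 0.0611). GCNT7 was at 2.78, 4.21 and 1.80 CPM in the SW480 libraries and 2.99, 4.15 and 1.06 in the SW620 libraries, with overlapping replicates (-0.13 ± 0.53 (SE), adjusted p = 0.884). GCNT4 had too few counts for the test, but without SW620 replicate 3 it was tested and called lower (-4.17 ± 1.13, adjusted p = 0.0188).

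The MGAT family changed in 5 of 7 tested genes, 2 higher (MGAT5B and MGAT3) and 3 lower (MGAT5, MGAT4A and MGAT4B). MGAT5 (chr2:134119983-134454621, + strand), the β1,6-branching enzyme and the first of the 84 genes per length in both SW lines, was at 962, 642 and 899.8 CPM in the SW480 libraries and 406, 318 and 459.8 in the SW620 libraries. The log2 fold change was -1.11 ± 0.23 (SE), adjusted p = 0.00523, and even the lowest SW480 library was above the highest SW620 library. MGAT5B (chr17:76868456-76950393, + strand), a relative that acts on O-mannose glycans, was at 9.17, 8.58 and 9.49 CPM in the SW480 libraries and 34.2, 39.5 and 45.1 in the SW620 libraries, a log2 fold change of 2.09 ± 0.16 (SE), adjusted p = 2.63e-05. MGAT3 (chr22:39457344-39492194, + strand), which adds the bisecting GlcNAc that is known to hinder further branching, was at 4.11, 3.87 and 4.28 CPM in the SW480 libraries and 11, 11.3 and 14.8 in the SW620 libraries, 1.56 ± 0.22 (SE), adjusted p = 0.000645. Both were higher in every SW620 library than in any SW480 library. MGAT4A (chr2:98619106-98731126, - strand), one of the β1,4-branching enzymes, was at 16.3, 14 and 18.9 CPM in the SW480 libraries and 3.04, 2.62 and 2.89 in the SW620 libraries, -2.55 ± 0.21 (SE), adjusted p = 3.56e-05. Its partner MGAT4B was at 212, 191 and 221 CPM in the SW480 libraries and 127, 134 and 175 in the SW620 libraries, -0.55 ± 0.17 (SE), adjusted p = 0.0413, and this call was lost under 8 of the 16 alternatives, among them another scaling (adjusted p up to 0.236). MGAT1 and MGAT2, which act first and second on every complex N-glycan, gave -0.22 ± 0.19 and 0.09 ± 0.40 with adjusted p = 0.442 and 0.896. An opposite-strand gene, AL139099.1, overlaps 91.9% of the exonic bases of MGAT2, so the MGAT2 counts are uncertain.

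**Figure D4:**
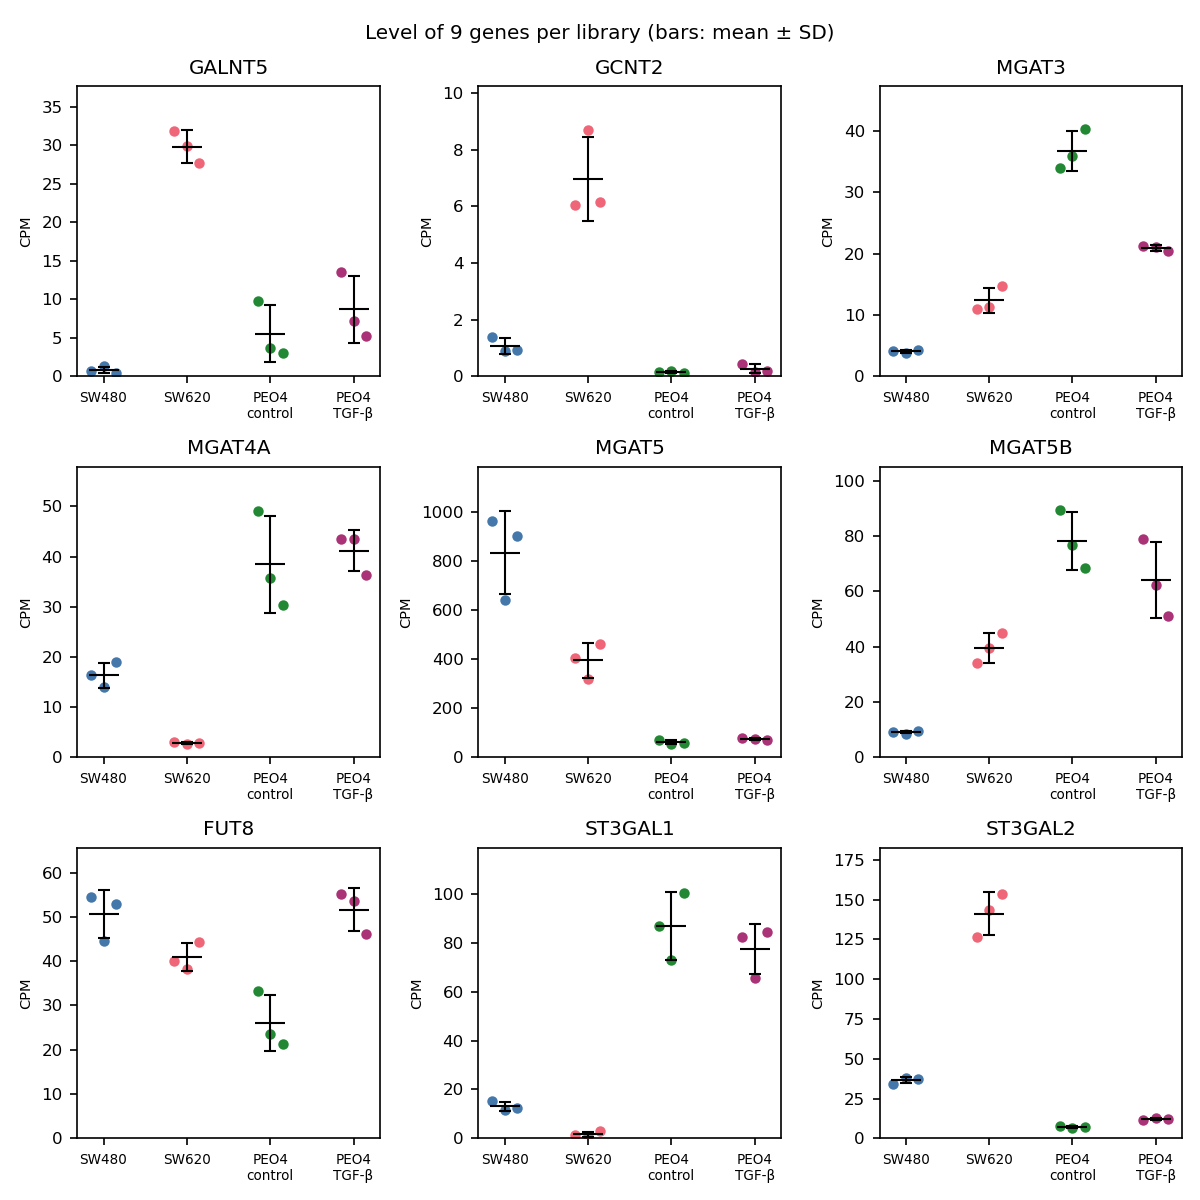
CPM (y axes, linear from 0) of 9 genes in the 3 libraries of each group (points), with mean ± SD. MGAT5 and MGAT4A are lower and MGAT5B, MGAT3 and ST3GAL2 higher in SW620 than in SW480 without overlap, and with TGF-β the PEO4 libraries are separated from control for MGAT3, FUT8 and ST3GAL2.

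Of the B3GNT genes, which extend chains with GlcNAc, 8 were tested, 1 was higher and 1 lower in SW620. B3GNT2, the main enzyme of poly-N-acetyllactosamine chains, was at 80.0, 47.9 and 80.8 CPM in the SW480 libraries and 31.3, 16.1 and 34.7 in the SW620 libraries, a log2 fold change of -1.38 ± 0.30 (SE), adjusted p = 0.00720. B3GNT3 (chr19:17794828-17813082, + strand), which extends the core 1 O-glycan, was at 12, 14.8 and 14.3 CPM in the SW480 libraries and 40.4, 29.5 and 51.5 in the SW620 libraries, 1.52 ± 0.22 (SE), adjusted p = 0.000770. For both, all SW480 libraries lay on 1 side of all SW620 libraries, and B3GNT2 led the family in SW480 (59.7% of the summed CPM per kb) and B3GNT3 in SW620 (46.3%). B3GNT7, an enzyme of keratan sulfate chains, was at 2.58, 1.63 and 2.06 CPM in the SW480 libraries and 0.834, 1.09 and 0.963 in the SW620 libraries and just missed the threshold (-1.15 ± 0.38 (SE), adjusted p = 0.0508).

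The galactosyltransferase family had no gene called higher and 5 of 11 lower in SW620. B3GALT5 (chr21:39556442-39673137, + strand) was at 28.1, 24.1 and 23.4 CPM in the SW480 libraries and 7.80, 12.8 and 10.3 in the SW620 libraries, a log2 fold change of -1.32 ± 0.21 (SE), adjusted p = 0.00151. B4GALT4 was at 20.7, 17 and 23.3 CPM in the SW480 libraries and 8.73, 9.77 and 11.5 in the SW620 libraries, -1.05 ± 0.19 (SE), adjusted p = 0.00252. B4GALT7, which adds the first galactose of the linker that joins glycosaminoglycans to proteins, was at 29.3, 30.4 and 29 CPM in the SW480 libraries and 13.9, 14.1 and 16 in the SW620 libraries, -1.05 ± 0.15 (SE), adjusted p = 0.000807. These 3 genes did not overlap between the lines and were called under every alternative. B3GALT6, which adds the next galactose of the same linker, was at 39.5, 38 and 47 CPM in the SW480 libraries and 48.6, 35.5 and 59.1 in the SW620 libraries and did not pass (0.17 ± 0.20 (SE), adjusted p = 0.572). B4GALT6, a lactosylceramide synthase, was at 13.2, 10.2 and 12.6 CPM in the SW480 libraries and 6.82, 5.67 and 8.09 in the SW620 libraries, -0.84 ± 0.21 (SE), adjusted p = 0.0163. B4GALT1 was at 69, 36.1 and 72.3 CPM in the SW480 libraries and 28.9, 21.6 and 43.2 in the SW620 libraries, -0.95 ± 0.30 (SE), adjusted p = 0.0411, the only called gene whose replicates overlapped. The B4GALT6 call was lost without any of 3 libraries (adjusted p up to 0.112) and the B4GALT1 call without any of 4 (up to 0.174). Without SW620 replicate 3, 1 gene of the family was higher, B3GALT2 (adjusted p = 0.0154), and 5 were lower. B4GALT5, the most abundant of the family, was at 276, 138 and 270.5 CPM in the SW480 libraries and 205, 122 and 266 in the SW620 libraries (-0.24 ± 0.32 (SE), adjusted p = 0.635). Replicate 2 was the lowest library of each SW line for B4GALT5, and likewise for B4GALT1, B3GNT2 and MGAT5.

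Of the FUT genes, which add fucose, 6 were tested, and 3 were higher in SW620. FUT4 (chr11:94543840-94549898, + strand), which makes Lewis x by adding fucose to GlcNAc, was at 29.6, 28.1 and 28 CPM in the SW480 libraries and 68.2, 58.7 and 75.4 in the SW620 libraries, a log2 fold change of 1.20 ± 0.15 (SE), adjusted p = 0.000376. FUT4 shares 22% of its exonic bases with PIWIL4 and another gene, and PIWIL4 itself was at 9.89 CPM in SW480 and 18.7 in SW620, so the FUT4 counts are uncertain. FUT10 was at 13.6, 15.3 and 17.4 CPM in the SW480 libraries and 24.5, 25.4 and 26.3 in the SW620 libraries, 0.69 ± 0.16 (SE), adjusted p = 0.0102, and FUT11 at 21, 16.9 and 19.4 CPM in the SW480 libraries and 25.9, 27.1 and 37.4 in the SW620 libraries, 0.62 ± 0.18 (SE), adjusted p = 0.0300. These are distant relatives of FUT4, and both changes were below 2-fold. The FUT10 call was lost without SW480 replicate 1 (adjusted p = 0.069), and the FUT11 call without any of 4 libraries or without the filter on low counts (up to 0.127). FUT8, the only enzyme of the core fucose on N-glycans, was at 54.5, 44.5 and 53 CPM in the SW480 libraries and 39.9, 38.2 and 44.4 in the SW620 libraries and did not pass (-0.34 ± 0.15 (SE), adjusted p = 0.115), although its groups did not overlap. FUT3, FUT5, FUT6, FUT7 and FUT9 had too few counts for the test.

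Of the 6 α2,3-sialyltransferases, 1 was higher and 2 were lower in SW620. ST3GAL2 (chr16:70375978-70439237, - strand), which caps core 1 O-glycans and gangliosides, was at 34.4, 37.9 and 37.4 CPM in the SW480 libraries and 127, 144 and 154 in the SW620 libraries, a log2 fold change of 1.92 ± 0.16 (SE), adjusted p = 3.17e-05. ST3GAL1, which caps the same core 1 O-glycans, was at 15.2, 11.8 and 12.4 CPM in the SW480 libraries and 1.23, 0.873 and 2.89 in the SW620 libraries, -3.01 ± 0.40 (SE), adjusted p = 0.000546. Both were separated in all 6 libraries, in opposite directions. PEO4-type counts predict 30.3% of the ST3GAL1 counts of SW620 replicate 3, and leaving that library out gave ST3GAL1 a log2 fold change of -3.66 (adjusted p = 2.5e-05). ST3GAL5, which makes the ganglioside GM3, was at 3.62, 3.59 and 3.66 CPM in the SW480 libraries and 0.687, 0.818 and 1.45 in the SW620 libraries, -1.91 ± 0.38 (SE), adjusted p = 0.00471. ST3GAL4 and ST3GAL6, which cap N-glycan antennae, were lower in all SW620 libraries without passing the test (-0.45 ± 0.17 and -1.17 ± 0.40, adjusted p = 0.0805 and 0.0563). The ST3GAL6 call was gained under 9 of the 16 alternatives, among them without SW620 replicate 3 (adjusted p = 0.0451). Per kb of exon ST3GAL4 led the family in SW480 (4.96 ± 0.891 CPM per kb, against 3.75 ± 0.191 for ST3GAL2) and ST3GAL2 in SW620, whereas in CPM ST3GAL2 was the first in both lines.

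Of the α2,6-sialyltransferases, 2 of 5 tested genes were lower in SW620, and both act on O-glycans or glycolipids. ST6GALNAC2, which sialylates the GalNAc of O-glycans, was at 6.94, 8.69 and 8.46 CPM in the SW480 libraries and 4.02, 3.82 and 3.08 in the SW620 libraries, a log2 fold change of -1.17 ± 0.25 (SE), adjusted p = 0.00676. ST6GALNAC6, which acts on gangliosides and on the disialyl-Lewis a structure, was at 23.9, 20.8 and 24.6 CPM in the SW480 libraries and 9.52, 13 and 16.9 in the SW620 libraries, -0.85 ± 0.21 (SE), adjusted p = 0.0154. Their exons overlap other genes over 57.2% and 47.0% of the bases, so their counts are uncertain, and the ST6GALNAC6 call was lost without any of 3 libraries (adjusted p up to 0.0786). ST6GAL1, which caps N-glycans with α2,6-linked sialic acid and is much studied in colon cancer, was at 22.9, 15.6 and 31 CPM in the SW480 libraries and 32.1, 21.9 and 42.4 in the SW620 libraries, with overlapping replicates (0.44 ± 0.28 (SE), adjusted p = 0.281). Of the ST8SIA genes only ST8SIA1, the GD3 synthase, was tested, and it gave -0.03 ± 0.56 (adjusted p = 0.975) at 0.561 and 0.563 CPM.

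All 31 calls kept their direction under all alternatives that gave a value, and 22 were called under every such alternative, leaving out each library included. Without SW620 replicate 3 the enzyme genes called were 12 higher and 21 lower of 63 tested, where 32.8% of all genes in that fit were called, and their median log2 fold change was -0.40.

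PEO4 cells with and without TGF-β were compared to ask how the cytokine changes the same enzymes. Of 69 tested enzyme genes, 2 rose and 2 fell (5.80%), where 2.26% of 19064 tested genes were called (1.27% higher and 0.991% lower). The count of 4 fell to 1 without control replicate 2, TGF-β replicate 1 or TGF-β replicate 2, and was 11 without control replicate 1 and 11 of 80 with no filter on low counts. The count over all genes moved likewise, from 431 of 19064 in the main fit. It was 72 of 19696 without control replicate 2, 128 of 19840 without TGF-β replicate 1 and 130 of 20010 without TGF-β replicate 2. Without control replicate 1 it was 1080 of 20088, and with no filter 1457 of 38108. The tested enzyme genes had a median level of 19.2 CPM against 12.4 for all tested genes. Their median log2 fold change was 0.09, against -0.02 for all tested genes, and replicate values did not overlap for 23 (33.3%), against 21.3% of all tested genes. The 4 called genes belong to 4 families. Of them 1, GALNT9, changed by at least 2-fold, and 1.05% of all tested genes were called with such a change.

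MGAT3, the bisecting enzyme, fell with TGF-β. It was at 34, 35.9 and 40.3 CPM in the control libraries and 21.3, 21 and 20.4 with TGF-β, a log2 fold change of -0.82 ± 0.10 (SE), adjusted p = 0.00480. The 3 treated libraries lay within 1 CPM of each other and below all control libraries, and the call held under all 16 alternatives. FUT8 (chr14:65410592-65744121, + strand), the core fucosyltransferase, rose with TGF-β. It was at 33.3, 23.5 and 21.3 CPM in the control libraries and 55.1, 53.7 and 46.2 with TGF-β, 0.98 ± 0.16 (SE), adjusted p = 0.0176. Every treated library was above every control library, and control replicate 1 was the highest of the controls. FUT8-AS1, an antisense gene that overlaps 12.3% of the exonic bases of FUT8, had 8 to 28 counts in control and 50 to 54 with TGF-β, against 395 to 591 and 933 to 1002 FUT8 counts, and strand use in counting is not given in the sources used here. The FUT8 call was lost without control replicate 2, TGF-β replicate 1 or TGF-β replicate 2 (adjusted p up to 0.122).

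ST3GAL2 rose too, and was at 7.84, 6.56 and 6.88 CPM in the control libraries and 11.4, 12.9 and 12.4 with TGF-β, a log2 fold change of 0.78 ± 0.14 (SE), adjusted p = 0.0234, with no overlap. SW-type counts predict 11.5% of the ST3GAL2 counts of control replicate 3 and 8.59% of those of TGF-β replicate 3. The call was kept without control replicate 1 and lost without any of the other 5 libraries (adjusted p up to 0.128). GALNT9 (chr12:132196372-132329349, - strand) fell, and was at 9.30, 11.6 and 16.9 CPM in the control libraries and 5.72, 7.08 and 5.05 with TGF-β, -1.10 ± 0.23 (SE), adjusted p = 0.0492, and was lost without any of 5 libraries, with limma-voom or with all 12 libraries in 1 model (up to 0.213). MGAT3, FUT8, ST3GAL2 and GALNT9 gave 1.56 ± 0.22, -0.34 ± 0.15, 1.92 ± 0.16 and -1.58 ± 0.45 in the comparison of SW620 with SW480, where MGAT3 and FUT8 had the opposite sign and ST3GAL2 and GALNT9 the same sign as with TGF-β.

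**Figure D5:**
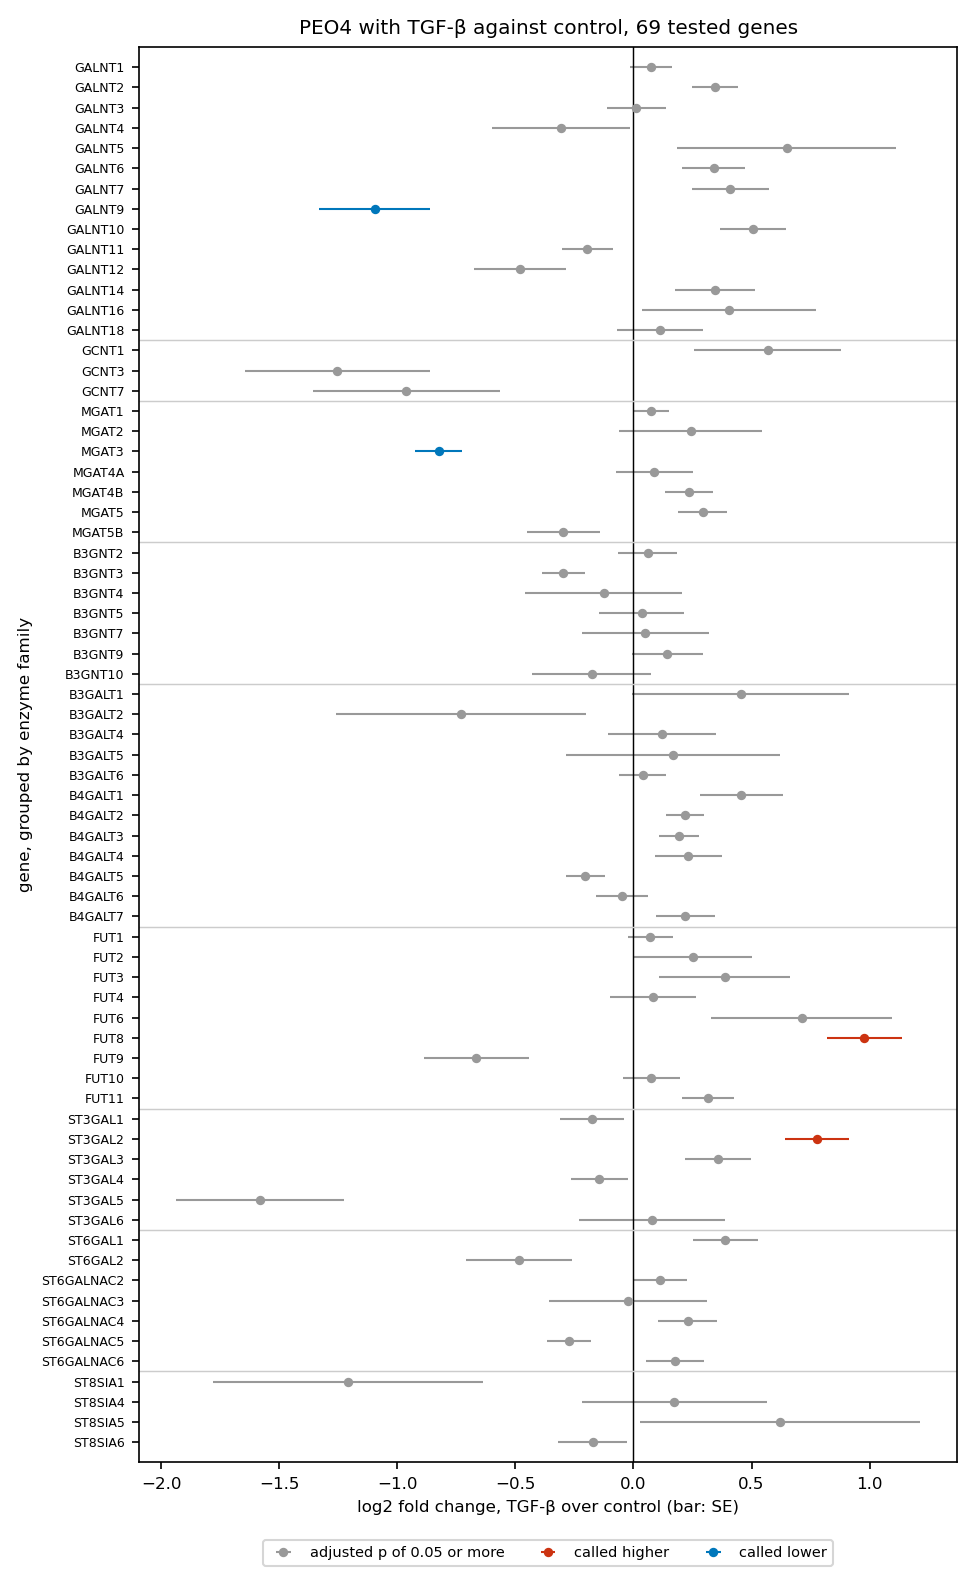
Log2 fold change of PEO4 with TGF-β over control (x axis, bars are the SE) for the 69 tested genes, grouped by enzyme family. FUT8 at 0.98 and ST3GAL2 at 0.78 were called higher (red), MGAT3 at -0.82 and GALNT9 at -1.10 lower (blue), and ST3GAL5 at -1.58 was not called.

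Several genes came close without passing. ST3GAL5, the GM3 synthase, was at 2.20, 3.87 and 5.49 CPM in the control libraries and 1.21, 1.45 and 1.24 with TGF-β. The log2 fold change of -1.58 ± 0.35 (SE), adjusted p = 0.0570 was the largest of the family, the groups did not overlap, and the control values spread over more than 2-fold. The gene was called under 5 of the 16 alternatives, among them DESeq2. GALNT10 was at 27.6, 22.8 and 21.1 CPM in the control libraries and 39.9, 29.7 and 32.8 with TGF-β (0.51 ± 0.14 (SE), adjusted p = 0.111) and GALNT2 at 36.5, 29.7 and 33.3 CPM in the control libraries and 43.5, 41.1 and 42.7 with TGF-β (0.35 ± 0.10 (SE), adjusted p = 0.113). Both were higher in all treated libraries, and GALNT10 too was called under 5 of the 16 alternatives, DESeq2 among them. B3GNT3 was at 101, 85.2 and 93.1 CPM in the control libraries and 82.1, 76.3 and 70.4 with TGF-β (-0.30 ± 0.09 (SE), adjusted p = 0.147), lower in all treated libraries. GCNT3 was at 2.37, 3.22 and 1.35 CPM in the control libraries and 1.10, 1.13 and 0.693 with TGF-β (-1.25 ± 0.39 (SE), adjusted p = 0.158), and FUT9 at 4.06, 5.72 and 5.33 CPM in the control libraries and 2.69, 3.43 and 3.46 with TGF-β (-0.67 ± 0.22 (SE), adjusted p = 0.178). FUT11 was at 39.7, 29.7 and 32.6 CPM in the control libraries and 42.7, 43.5 and 41.7 with TGF-β (0.32 ± 0.11 (SE), adjusted p = 0.197). An unadjusted p under 0.05 was found for 24 of the 69 genes, against 16.7% of all tested genes.

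The most abundant enzymes of PEO4 did not pass the test. B4GALT1 was at 573, 452 and 345 CPM in the control libraries and 624, 734 and 536 with TGF-β, with overlap between the lowest treated and the highest control library (0.46 ± 0.18 (SE), adjusted p = 0.239). GALNT3 gave 0.01 ± 0.13, MGAT4B 0.23 ± 0.10 and MGAT5 0.29 ± 0.10, with adjusted p = 0.975, 0.289 and 0.197. ST3GAL1 and ST3GAL4, the main α2,3-sialyltransferases of this line, gave -0.17 ± 0.14 and -0.14 ± 0.12 (adjusted p = 0.570 and 0.602). ST8SIA6 gave -0.17 ± 0.15 (0.608). The Lewis-type genes FUT3 and FUT6 gave 0.39 ± 0.28 and 0.71 ± 0.38 (adjusted p = 0.535 and 0.394). Without control replicate 3 and, separately, without TGF-β replicate 3, 1 gene rose (FUT8) and 1 fell (MGAT3), of 72 and 71 tested, where 1.18% and 1.13% of all genes in those fits were called.

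Genes that work beside these enzymes were read from 5 further lists. Of 18 tested genes for precursor sugars and their Golgi transporters, 2 were higher and 2 lower in SW620 (22.2% called, against 30.5% of all tested genes). GMDS, which makes GDP-fucose, went from 16.3 ± 1.98 to 67 ± 7.82 CPM (log2 fold change 2.01 ± 0.16, adjusted p = 3.17e-05), and FUK, which salvages fucose, from 12.6 ± 0.620 to 31.5 ± 6.45 CPM (log2 fold change 1.29 ± 0.19, adjusted p = 0.00101). GFPT2, an entry enzyme of GlcNAc synthesis, went from 6.16 ± 1.40 to 0.676 ± 0.128 CPM (log2 fold change -3.21 ± 0.35, adjusted p = 0.000179). The other fucose genes of the list, TSTA3, FPGT and SLC35C1, were not called in SW. Their log2 fold changes were 0.53, 0.17 and 0.30 (adjusted p = 0.0852, 0.679 and 0.292). None of the 17 tested genes of this list was called in PEO4. Of 8 N-glycan trimming genes, MAN1C1, a mannosidase, was lower in SW620 (12.5% called, -2.48 ± 0.46, adjusted p = 0.00316) and none was called in PEO4.

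Of 15 tested genes for sulfation or removal of sugars, 3 were higher and 5 lower in SW620 (53.3% called, against 30.5% of all tested genes). The sulfotransferases CHST2, CHST10 and CHST1 were lower, CHST2 going from 5.26 ± 0.693 to 0.119 ± 0.0384 CPM (log2 fold change -5.43 ± 0.42, adjusted p = 2.5e-05), CHST10 from 8.25 ± 1.89 to 0.561 ± 0.350 CPM (log2 fold change -3.89 ± 0.43, adjusted p = 0.000182) and CHST1 from 2.31 ± 0.140 to 0.172 ± 0.114 CPM (log2 fold change -3.74 ± 0.57, adjusted p = 0.00115). CHST2 had no more than 3 counts in any SW620 library. GAL3ST1, which makes sulfatide, was higher (2.80 ± 0.33, adjusted p = 0.000275), and FUCA1, the lysosomal fucosidase, lower (-2.30 ± 0.31, adjusted p = 0.000560). The sialidases NEU4 (1.77 ± 0.38, adjusted p = 0.00666) and NEU3 (0.66 ± 0.14, adjusted p = 0.00636) were higher and the sulfotransferase CHST6 lower (-0.87 ± 0.18, adjusted p = 0.00632). In PEO4 the 1 gene called in this list was GAL3ST2, a sulfotransferase for galactose, which fell from 29 ± 2.08 to 19.9 ± 0.359 CPM (log2 fold change -0.56 ± 0.10, adjusted p = 0.0230). Of 10 tested genes for O-glycan cores, blood groups and related structures, 1 was higher and 4 lower in SW620 (50% called), namely ABO (0.95 ± 0.22, adjusted p = 0.00966), A4GALT (-1.72 ± 0.41, adjusted p = 0.0118), B4GALNT4 (-1.45 ± 0.20, adjusted p = 0.000572), B4GALNT3 (-1.33 ± 0.17, adjusted p = 0.000418) and B4GALNT1 (-0.60 ± 0.19, adjusted p = 0.0414), and none was called in PEO4. C1GALT1 and C1GALT1C1, which make the core 1 structure, gave 0.32 ± 0.14, adjusted p = 0.117 and -0.05 ± 0.25, adjusted p = 0.914. Of 6 tested galectins, proteins that bind galactose-ended glycans, 3 were higher in SW620 (LGALS4 1.55 ± 0.47, adjusted p = 0.0355; LGALS2 1.41 ± 0.37, adjusted p = 0.0177; LGALS9 1.39 ± 0.35, adjusted p = 0.0153) and LGALS1 was lower (-1.46 ± 0.31, adjusted p = 0.00645), 66.7% called, while none of 5 was called in PEO4. For the 4 lists with no call in PEO4 by edgeR, DESeq2 and limma-voom also called 0 genes, and an unadjusted p under 0.05 was found for 4 precursor genes, 1 trimming gene, 1 core or blood group gene and 2 galectins.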

How the data were processed

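The authors deposited whole-number counts per gene for 12 libraries and, per comparison, tables with a log2 fold change and a p-value. Per the submitters' processing notes the tools were Trimmomatic 0.36, STAR 2.5.2b, featureCounts of Subread 1.5.2 and DESeq2, with genome GRCh38; annotation release, strand setting and treatment of multi-mapping reads are not given in the sources used here. RNA was depleted of ribosomal RNA and DNase-treated, per the labels' protocols. Tests started from the counts, and the deposited log2 and p-values served only to compare calls.

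Each comparison was fitted on its 6 libraries with edgeR 4.0.16 in R 4.3.3 (filterByExpr, TMM, quasi-likelihood test, Benjamini-Hochberg, threshold 0.05). Levels are CPM on totals scaled over 12 libraries. Positions and exon lengths are from GENCODE 29, where 43 of the 84 genes overlap exons of another gene. Alternatives were DESeq2 1.42.0, limma-voom (limma 3.58.1), RLE scaling, library totals, a minimum of 10 counts per library, no minimum, a block for the replicate number, a model of all 12 libraries, and the omission of each library; a GC correction (span 0.3), alone and with the block, was added after seeing the data. Carry-over was read from genes of at least 20 CPM in one lineage and under 0.5% of that in the other libraries of the other lineage. On simulated counts the test recovered 39.8% of 2-fold and 80% of 4-fold changes in the SW design (20248 genes) and 72% and 93% in PEO4 (18640 genes). Only 98 genes changed by 2-fold and 100 by 4-fold in the SW run, and 100 by each in the PEO4 run. In the real data 30.5% of tested genes were called in SW and 2.26% in PEO4. The adjusted threshold depends on how many genes change, so the simulated shares do not give the recovery in the real data. With 3 against 3 libraries an exact two-sided permutation test reaches p = 0.1 at best, so no permutation test was run. edgeR's common biological coefficient of variation came to 0.274 in SW and 0.152 in PEO4.

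The gene families and lists to describe were chosen with earlier results of these data known. Values per library follow a rule: in SW, genes called, not overlapping and of at least 1 CPM, up to 25 by fold change; in PEO4, called genes and the 10 smallest p; the leading gene of each family per group; FUT3, FUT5 and FUT6; and up to 5 called genes per list. Other genes with values were chosen after these were seen. The values of 1 called gene of the precursor list are not reported here. No value column was left unused for lack of a label, since each matched 1 sample.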

Additional observations from a re-analysis of the deposited data

How the results depend on the processing

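All results rest on 3 libraries a group, so calls near the threshold moved with single libraries. For SW620 against SW480 the 6385 calls over all genes ranged from 4253 (without SW480 replicate 1) to 7419 when a library was left out, the 31 enzyme genes called from 23 to 34, those higher (12) from 10 to 17, those lower (19) from 13 to 21, and the median log2 fold change (-0.16) from -0.40 (without SW620 replicate 3) to -0.048. For PEO4 the 431 calls over all genes ranged from 72 to 1080, the 4 enzyme genes called from 1 to 11, those higher (2) from 0 to 8 and those lower (2) from 1 to 3. In PEO4, DESeq2 called 967 genes over all; without a filter on low counts 1457 genes and 11 enzyme genes (7 higher, 4 lower) were called; all 12 libraries in 1 model gave 165 genes and 1 enzyme gene lower, and limma-voom also 1 lower. The cause was not tested.

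With the replicate number as a block, SW gave 10667 of 20941 genes and 45 of 62 enzyme genes (19 higher, 26 lower). PEO4 gave 2102 of 19064 genes and 20 of 69 enzyme genes (12 higher, 8 lower). With GC correction and the block, SW gave 11104 of 20941 genes and 47 of 62 enzyme genes (21 higher, 26 lower). PEO4 then gave 2004 of 19064 genes and 16 of 69 enzyme genes (9 higher, 7 lower). Libraries with the same number correlated by 0.016, 0.670 and 0.567 in SW and by 0.291, -0.140 and 0.481 in PEO4 in their deviations from group means. Libraries with different numbers correlated by -0.630 to 0.268 in SW and by -0.486 to 0.239 in PEO4. For SW replicates 2 and 3 the same-number values lay above all of these. The labels do not say whether the numbers pair the samples, and these values do not settle it. The main tests used no block.

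Sign changes touched only genes that were not called. Among the genes picked by the rule for values per library, these were B4GALT5, GCNT7 and ST8SIA1 in SW and GALNT3 in PEO4. Other genes changed sign too, such as B3GNT9 under 5 of the 16 SW alternatives and ST6GALNAC3 under 10 of the 16 in PEO4. When a library was left out, the SW log2 fold change of B4GALT5 ranged from -0.50 to 0.061, that of GCNT7 from -0.51 to 0.25 and that of ST8SIA1 from -0.35 to 0.36, and the PEO4 value of GALNT3 from -0.11 to 0.12. With library totals ST8SIA1 gave 0.023 and GALNT3 -0.0021. The filter of at least 10 counts removed 5 of the 62 tested enzyme genes in SW (GALNT4, GALNT5, GALNT8, GCNT3, ST8SIA1) and 4 of the 69 in PEO4 (B3GALT1, B3GALT5, ST8SIA1, ST8SIA5). Depth limits the genes under about 1 CPM, which were not tested or rest on few counts.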

Other observations

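Some of the enzyme genes with too few counts for the test had unequal summed counts. Ratios are given only for genes with no more than 3 counts in every library of 1 group, so they are descriptions and not tests. GCNT4, a core 2 enzyme, had 33 counts in SW480 and 2 in SW620 over 3 libraries each, a ratio per scaled total of 17.1 (95% counting interval 4.37 to 147). ST6GALNAC3 had 25 and 3 counts (8.64, 2.64 to 44.7), ST8SIA5 30 and 4 (7.77, 2.74 to 30.4), and FUT7, the enzyme of sialyl-Lewis x in white blood cells, 15 and 2 (7.77, 1.81 to 70.0). FUT6 had 20 and 5 counts (4.15, 1.51 to 14.1) and ST6GAL2 11 and 3 (3.80, 1.00 to 21.2). In PEO4, B3GNT6, the core 3 enzyme of colon mucins, had 35 counts with TGF-β and 3 in control (11, 3.47 to 56.0). GCNT2 had 15 counts with TGF-β and 8 in control (1.77, 0.704 to 4.82), and SW-type counts predict 35.1% of its counts in control replicate 3 and 24.7% in TGF-β replicate 3. These intervals cover counting error only and do not include the spread between libraries. Replicate values overlapped between the groups for FUT6 and ST6GAL2 in SW and for GCNT2 in PEO4, and the interval of GCNT2 includes no difference.

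The SW lines' part of the authors' deposited table lists 62 of the 84 genes, and 33 of them have an adjusted p under 0.05, of which 31 are the genes called here and the others are B3GNT7 and ST3GAL6. For PEO4 the authors' deposited table lists 70 of the genes and 6 pass, which are the 4 called here, GALNT10 and ST3GAL5.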
